A study of Mus musculus with 9 samples.

Results

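Transporters of amino acids, transmitters and bicarbonate were followed in neural stem cells with and without deletion of Smchd1, a gene for a chromatin silencing protein of the SMC family. The genes were taken from the deposited table by symbol: every numbered member of the solute carrier families Slc1, Slc4, Slc6, Slc7, Slc17, Slc32, Slc36 and Slc38, except Slc1a2, Slc1a3 and Slc38a4. This gave 71 of the 25965 genes listed. The cells were C57BL/6 neural stem cell lines from E14.5 embryos, and in all of them both Smchd1 alleles were floxed (fl/fl), that is, flanked by sites that the recombinase Cre cuts. One part of a line was transduced with the retrovirus MSCV-Cre-puro, selected with puromycin from 24 h on and harvested on day 7 (del/del), and the other part stayed untransduced (fl/fl). There were 3 female del/del libraries (lines 1 to 3), 1 male del/del library (line 5), 3 female fl/fl libraries (lines 1 to 3) and 2 male fl/fl libraries (lines 5 and 7). The del/del cultures alone received virus and drug, so these and the deletion cannot be told apart. The design text of the series speaks of female del/fl controls, and the sample labels were followed here.

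Solute carriers move small molecules across membranes, usually driven by the gradient of an ion. Members of Slc1 and Slc6 use sodium to take up glutamate, neutral amino acids, GABA, glycine, taurine or creatine, and in brain tissue they clear transmitters and feed cells. Slc7 proteins exchange or import cationic and large neutral amino acids, many of them only when joined to the heavy subunit Slc3a2. Slc38 proteins carry glutamine and other neutral amino acids, Slc36 proteins couple amino acids to protons, Slc17 and Slc32 include the carriers that fill synaptic vesicles with glutamate and GABA, and most Slc4 proteins move bicarbonate and so set cell pH.

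Levels are log2 RPM, the log2 of a gene's reads scaled to a common library size (RPM), as the authors gave them. They are not scaled for gene length, and a difference of 1 is a 2-fold difference. Reads in listed genes numbered 12.9 to 44.9 M (mega, as in all depths here) per library. The shallowest was female fl/fl 2, with 24.1 M reads in all against 74.0 to 116.6 M in the others and 53.3% of reads in listed genes against 34.8% to 44.4%. A gene counted as expressed when its level was at least 0 in at least 3 libraries. Smchd1 itself was at 5.36, 5.04 and 5.21 in female del/del 1, 2 and 3 and 5.23 in male del/del 5, and at 6.36, 6.81, 6.16, 6.25 and 6.37 in female fl/fl 1, 2 and 3 and male fl/fl 5 and 7 (log2 fold change -1.19, limma adjusted p = 0.00751). Xist was at 7.79 to 8.75 in the female libraries and at -1.46 or lower in the male ones, so sex matched the labels. All 9 neural stem cell markers looked up (Nes, Sox2, Pax6, Vim, Fabp7 and others) were expressed in these cultures, with summed levels of 411 to 545 RPM in del/del and 393 to 894 RPM in fl/fl libraries.

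Of the 71 transporter genes 38 were expressed, against 54.1% of all genes in the table. By family these were 4 of 5 Slc1 genes, 7 of 10 Slc4, 7 of 17 Slc6, 10 of 15 Slc7, 1 of 9 Slc17, 0 of 1 Slc32, 2 of 4 Slc36 and 7 of 10 Slc38 genes. Per kilobase of annotated exon the most abundant was Slc7a5, the light subunit of the large neutral amino acid exchanger, with 26.9 ± 8.60 RPM per kb (SD, n = 9). Next came Slc1a4, an exchanger of alanine, serine and cysteine, with 22.4 ± 5.22 RPM per kb (SD, n = 9), and Slc38a2, a sodium-driven importer of small neutral amino acids, with 15.1 ± 4.75 RPM per kb (SD, n = 9). The ranges of Slc7a5 (22.7 to 49.1 RPM per kb) and Slc1a4 (19.6 to 35.7) overlapped between libraries. Within each library Slc7a5 was above Slc1a4. Slc7a10, an exchanger of small neutral amino acids such as glycine and serine, had 13.5 RPM per kb, the GABA transporter Slc6a11 12.04, the cationic amino acid transporter Slc7a1 11.5 and the glycine transporter Slc6a9 10.9, and the ranges of these 4 overlapped as well. At the other end Slc4a10 had 0.115 RPM per kb. These values per length take all reads of a row as exonic, which the deposited table does not show. The row of Slc7a5 lies wholly inside that of Gm20388, so its reads may also be counted there, which was not tested. Likewise the row of Slc7a10 shares 26.3% of its length with Lrp3. That of Slc6a9 shares 81.7% with Gm17114 and also overlaps B4galt2, Ccdc24 and Gm20520.

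The other 33 genes had at most 410 reads in all 9 libraries together, and 24 of them had 100 reads or fewer. None of the 3 vesicular glutamate transporters passed the filter: Slc17a6 had 3 reads in all, Slc17a7 163 and Slc17a8 410. The vesicular GABA transporter Slc32a1 had 47 reads. The plasma membrane transporters of noradrenaline (Slc6a2), dopamine (Slc6a3) and serotonin (Slc6a4) had 9, 108 and 107 reads. The same held for the glycine transporter Slc6a5 (20 reads), the proline transporter Slc6a7 (4), the betaine and GABA transporter Slc6a12 (13) and the GABA transporter Slc6a13 (115). Slc17a1 and Slc17a3, known from the kidney, had no read in any library, and Slc17a2 and Slc17a4 had 15 and 1. Slc17a9, the vesicular nucleotide transporter, had 258. Below the filter were also the glutamate transporter Slc1a7 (16 reads), the anion exchanger of red cells Slc4a1 (29), Slc4a5 (153) and Slc4a9 (73). In Slc6 they included Slc6a14 (7), Slc6a18 (2) and Slc6a19 (70), and in Slc7 they were Slc7a9 (5), Slc7a12 (4), Slc7a13 (2), Slc7a14 (199) and Slc7a15 (231). The rest were Slc36a2 (42), Slc36a3 (27), Slc38a5 (16), Slc38a8 (12) and Slc38a11 (24). These 33 were not tested in the main fit. A limma fit without the filter held those with at least 1 read. There 2 transporter genes rose and 0 fell, Slc6a15 and Slc4a10, and none of the 33 passed.

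**Figure D1:**
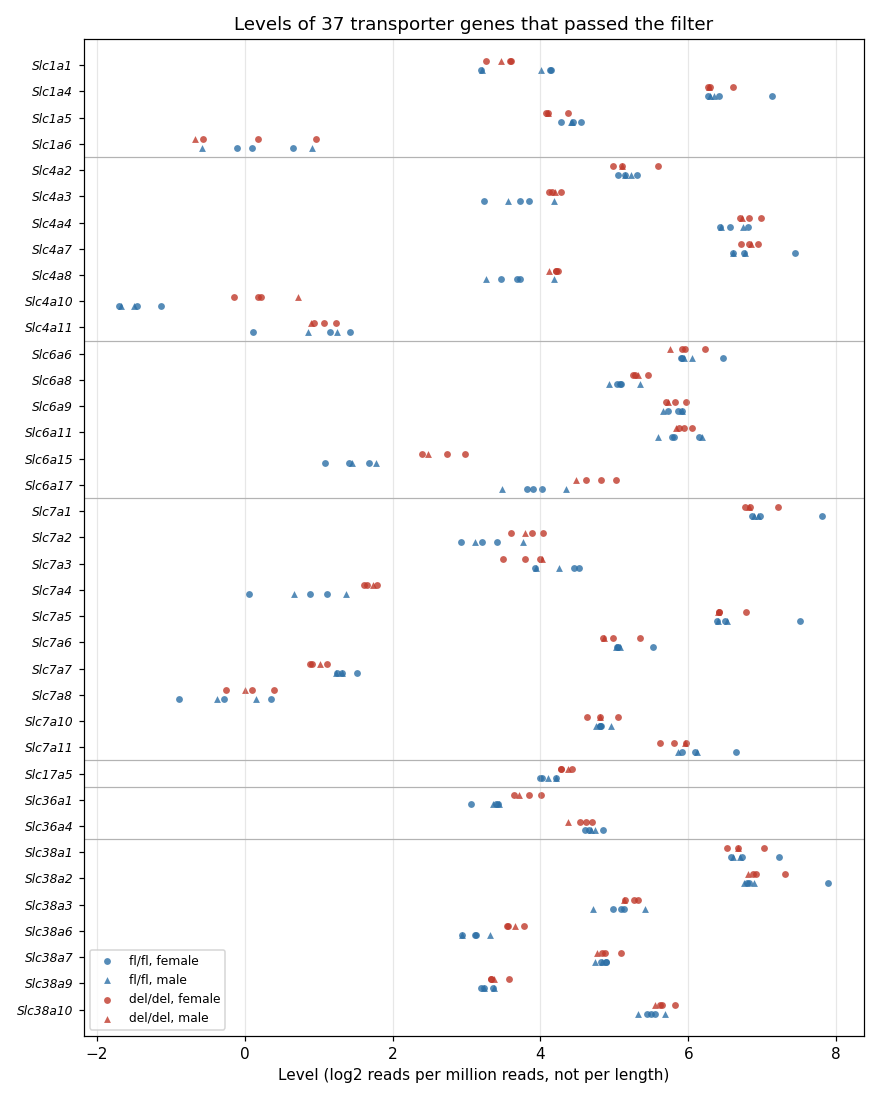
Level of each of 37 expressed transporter genes in log2 RPM (x axis, not per length), 1 point per library, by family from Slc1 (top) to Slc38 (bottom). Circles are female and triangles male libraries. Del/del points lie to the right of all fl/fl points in 7 genes, among them Slc4a10, Slc6a15 and Slc38a6, and to the left in Slc7a7.

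In limma with sex as a covariate and p-values adjusted over 14044 genes, the 4 del/del and 5 fl/fl libraries of both sexes were compared first, and 3 of the 38 expressed transporter genes rose in del/del and 0 fell. These were Slc6a15, Slc4a10 and Slc38a6. The background of rises over all genes tested was 1.45%, and of falls 0.0997%. At an unadjusted p under 0.05 there were 13 of the 38 (10 up and 3 down), against 9.84% of all genes (8.06% up and 1.78% down). Blocked by line, 8 of the 38 rose and 0 fell, against 3.77% and 0.228% of all genes. The 5 added by the block were Slc6a17, Slc7a4, Slc7a2, Slc4a8 and Slc4a3. Line 7 has no del/del library, so male fl/fl 7 does not enter the block estimates, which equal those with that library left out. When the libraries were also centred on their medians, the block gave 3 rises (Slc6a15, Slc4a10 and Slc6a17) and 0 falls, against 1.61% and 0.171% of all genes. With voom on recovered reads 2 of the 38 rose (Slc6a15 and Slc4a10), where 1.65% of all genes did. Estimates were above 0 for 22 and below 0 for 16 of the 38 (above 0 for 18 with voom), with a median log2 fold change of 0.03 against -0.00 over all genes tested. All del/del values lay above all fl/fl values in 7 of the 38 (5.53% of all genes) and below them in 1 (0.99% of all genes). In the 4 lines with both cultures, 13 of the 38 genes were higher in del/del each time (17.9% of all genes) and 4 were lower each time (4.05%). The rises, the 7 and the 13 all include Slc4a10. That gene passed the filter on low values only through its del/del libraries, so it had to differ to be counted.

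The count of 3 depended on single libraries. It was 0 when female del/del 1, female del/del 2 or male del/del 5 was left out. Leaving out female del/del 3, or one of the fl/fl libraries of female lines 1 and 3 and male line 5, gave 1. Without female fl/fl 2 it was 2, and without male fl/fl 7 it was 5. Within the 6 libraries whose labels start with RNA- only Slc6a17 passed (background of rises 1.24%), and with that prefix as a term in the model 5 genes rose (background 2.71%). Cell composition was not measured in these bulk cultures, so more cells of a kind and more RNA per cell cannot be told apart.

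**Figure D2:**
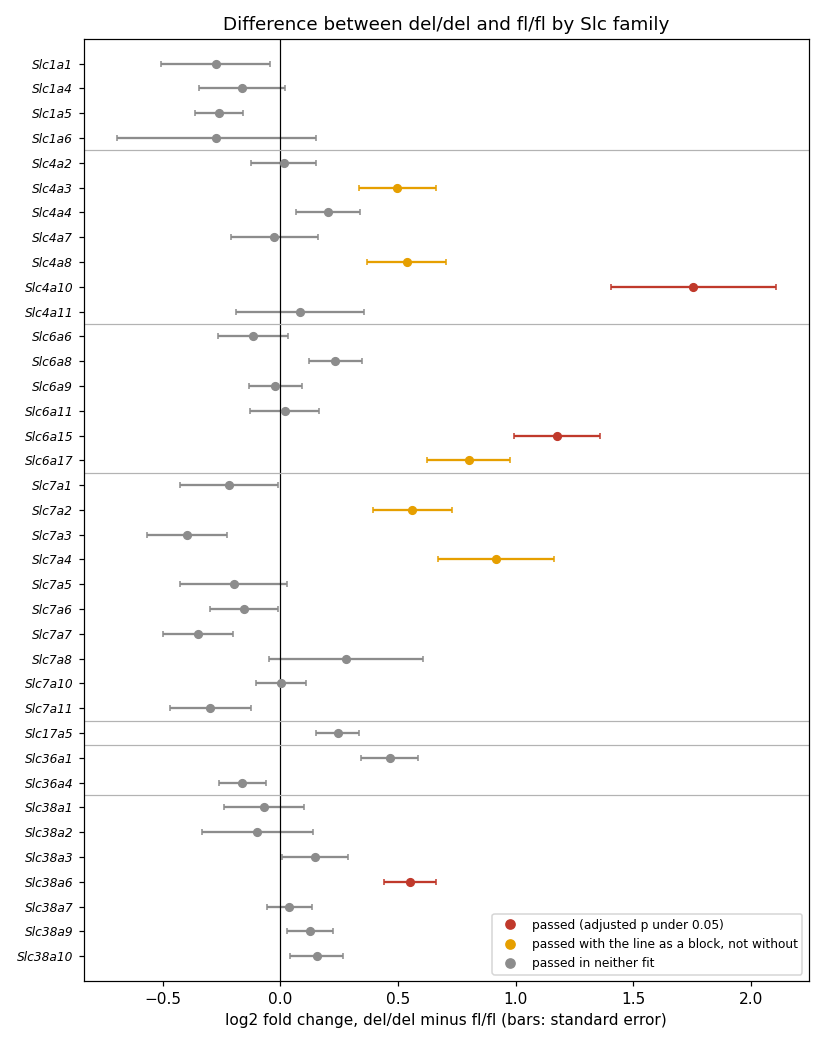
Log2 fold change of 37 expressed transporter genes, del/del minus fl/fl over both sexes (x axis), with its standard error, by family from Slc1 (top) to Slc38 (bottom). The 3 genes that passed are at 1.18 (Slc6a15), 1.75 (Slc4a10) and 0.55 (Slc38a6), and the 5 that passed with the line as a block and not without it lie between 0.50 and 0.92.

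Among the expressed Slc6 genes 1 of 7 rose. Slc6a15 encodes a sodium-dependent transporter of branched-chain amino acids and proline in neurons (chromosome 10, 103367808 to 103419378, mm10). Its level was 2.98, 2.74 and 2.40 in female del/del 1, 2 and 3 and 2.48 in male del/del 5. In fl/fl it was 1.68, 1.41 and 1.08 in females 1, 2 and 3, and 1.78 and 1.46 in males 5 and 7. The lowest del/del library was thus above the highest fl/fl library. Slc6a15 rose 2.26-fold (limma adjusted p = 0.0157), a log2 fold change of 1.18 with SE 0.183, on 64 to 704 reads per library. In lines 1, 2, 3 and 5 the difference was 1.30, 1.34, 1.32 and 0.70. The call was lost without female del/del 1 (adjusted p = 0.0592), female del/del 2 (0.0718) or male del/del 5 (0.0930), within the RNA- libraries (0.0577) and with quantile normalization (0.0653). Under that scaling the log2 fold change was 1.03.

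Slc6a17 encodes a vesicular transporter of neutral amino acids in neurons. Its levels were 4.81, 5.03 and 4.62 in female del/del 1, 2 and 3 and 4.48 in male del/del 5, and 3.89, 3.82 and 4.02 in female fl/fl 1, 2 and 3 and 3.48 and 4.35 in male fl/fl 5 and 7. The groups did not overlap, male fl/fl 7 being the nearest. The log2 fold change of 0.80 (SE 0.176) did not pass (limma adjusted p = 0.0637). In the block fit, where line 7 has no partner, it was 0.93 and passed (adjusted p = 0.00656). Without male fl/fl 7 the adjusted p was 0.0133.

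The other Slc6 genes described showed no difference that passed in any setting. The creatine transporter Slc6a8 on the X chromosome was at 5.32 ± 0.092 (SD, n = 4) with the deletion and 5.09 ± 0.156 (SD, n = 5) without it. The GABA transporter Slc6a11 on chromosome 6 had a log2 fold change of 0.02. The taurine transporter Slc6a6 had -0.12, and the glycine transporter Slc6a9 had -0.02.

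In the Slc4 family 1 of 7 expressed genes rose, with a median of 0.20. Slc4a10, a sodium-coupled bicarbonate transporter of neurons and choroid plexus (chromosome 2, 62046462 to 62326730, mm10), was low in all libraries. Its level was -0.14, 0.21 and 0.18 in female del/del 1, 2 and 3 and 0.72 in male del/del 5. In fl/fl it was -1.70, -1.13 and -1.46 in females 1, 2 and 3, and -1.67 and -1.49 in males 5 and 7. Every del/del library was above every fl/fl library, on 11 to 168 reads. Slc4a10 rose 3.38-fold (limma adjusted p = 0.0431), a log2 fold change of 1.75 with SE 0.351. It passed the filter on low values only through its del/del libraries, so it had to differ to be tested. Among the 37 transporter genes that passed the filter through both groups, 2 rose, against 1.20% of all such genes. The call of Slc4a10 held without female fl/fl 2 or without male fl/fl 7 and was lost without any other single library (adjusted p 0.0635 to 0.447), within the RNA- libraries (0.0505) and with quantile normalization (0.254). On the scale of log2 of RPM plus 1 its log2 fold change was 0.71, more than 1.5 times smaller.

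The promoters of the genes that rose are shown to set the sequence around their starts beside these values. They come from RefSeq (build GRCm38.p6, the assembly also called mm10), run from 250 bases before to 50 after an annotated start, and are printed 5′ to 3′ with each CG dinucleotide in capitals. Slc4a10 (chr2:62046265-62046564, plus strand) and Slc38a6 (chr12:73286598-73286897, plus strand) have an entry in the table.
Slc4a10: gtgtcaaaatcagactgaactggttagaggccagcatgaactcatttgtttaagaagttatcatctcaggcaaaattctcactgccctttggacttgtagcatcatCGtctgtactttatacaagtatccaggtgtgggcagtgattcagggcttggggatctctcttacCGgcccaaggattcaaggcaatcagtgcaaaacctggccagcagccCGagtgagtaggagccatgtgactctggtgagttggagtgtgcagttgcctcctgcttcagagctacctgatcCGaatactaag
Slc38a6: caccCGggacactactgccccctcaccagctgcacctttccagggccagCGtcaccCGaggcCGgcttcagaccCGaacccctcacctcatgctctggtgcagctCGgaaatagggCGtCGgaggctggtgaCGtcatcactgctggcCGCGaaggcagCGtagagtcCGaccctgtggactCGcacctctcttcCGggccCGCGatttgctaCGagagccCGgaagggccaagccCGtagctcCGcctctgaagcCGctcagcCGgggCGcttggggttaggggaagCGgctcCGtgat
The window of Slc4a10 holds 4 CG dinucleotides and that of Slc38a6 holds 26. Of the 71 genes 49 matched an entry, and where a gene had several starts the one nearest the deposited row was taken. The median was 22.5 CG dinucleotides in 26 expressed transporter genes, 7.0 in 23 that were not expressed and 7.0 over all 32851 windows, of which 94.6% hold at least 1. The letters TGATGNAA, a form of the amino acid response element, were searched on both strands. They occur in 2 of the 26 windows of expressed genes (Slc1a4 and Slc7a11), in 1 of the 23 others (Slc17a1), and in 4.0% of all windows. A match is a description of the letters and not evidence of a bound factor.

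Slc4a8, which exchanges sodium and bicarbonate for chloride, was at 4.21, 4.21 and 4.24 in female del/del 1, 2 and 3 and 4.12 in male del/del 5. In fl/fl it was 3.69, 3.47 and 3.72 in females and 3.26 and 4.18 in males 5 and 7. The del/del libraries lay close together, and only male fl/fl 7 reached into their range. The log2 fold change of 0.54 (SE 0.169, limma adjusted p = 0.221) passed with the line as a block (0.66, adjusted p = 0.0152) and without male fl/fl 7 (0.0204), but not with the block and median centring (0.0529). Slc4a3, a chloride and bicarbonate exchanger of brain and heart, had the same layout, at 4.18 ± 0.074 (SD, n = 4) with the deletion and 3.71 ± 0.346 (SD, n = 5) without, again with male fl/fl 7 (4.18) inside the del/del range. It had 0.50 (limma adjusted p = 0.250, 0.0298 with the block, and 0.121 with the block and median centring). The other Slc4 genes differed less. The sodium bicarbonate cotransporter Slc4a4 of glia had 0.20, and Slc4a7, of the same group, had -0.03. The widely expressed anion exchanger Slc4a2 had 0.01, and Slc4a11, a relative with a role in the cornea, had 0.08.

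Of 7 expressed Slc38 genes 1 rose, with a median of 0.13. Slc38a6 belongs to the sodium-coupled neutral amino acid transporters and is one of the less studied members (chromosome 12, 73286779 to 73354049, mm10). It was at 3.55, 3.56 and 3.78 in female del/del 1, 2 and 3 and 3.65 in male del/del 5. The fl/fl levels were 3.11, 2.94 and 3.13 in females and 2.94 and 3.32 in males 5 and 7. The groups were separate by 0.23, from 3.32 to 3.55. Slc38a6 rose 1.46-fold (limma adjusted p = 0.0450), a log2 fold change of 0.55 with SE 0.112. The difference was 0.43, 0.62, 0.65 and 0.71 in lines 1, 2, 3 and 5. Its call was close to the threshold: it held without male fl/fl 7 (adjusted p = 0.0303) and was lost without any other single library (0.0550 to 0.272), with voom (0.0980), median centring (0.108) or quantile normalization (0.0938), without a filter (0.0533), and with the block and median centring (0.0670, against 0.0185 with the block alone).

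Estimates were small for the other Slc38 genes. Slc38a9, the arginine sensor of the mTORC1 pathway, had 0.13, Slc38a7, a lysosomal glutamine exporter, had 0.04, and Slc38a10 had 0.15. The glutamine transporters of the cell surface had 0.15 (Slc38a3), -0.07 (Slc38a1) and -0.10 (Slc38a2). The last pair, both on chromosome 15, were highest of all libraries in female fl/fl 2.

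None of the 10 expressed Slc7 genes passed over both sexes by limma or by voom, while 4 had an unadjusted p under 0.05 by limma (2 up and 2 down; 8.06% and 1.78% of all genes). The family median was -0.18. Slc7a4, a relative of the cationic transporters whose substrate is not settled, was at 1.65, 1.78, 1.61 and 1.74 in female del/del 1, 2 and 3 and male del/del 5. In fl/fl it was at 0.89, 0.05 and 1.11 in females and 0.66 and 1.36 in males 5 and 7, so the groups were separate. It had 0.92 (SE 0.246, limma adjusted p = 0.132) and passed with the block (1.02, adjusted p = 0.0338), but not with the block and median centring (0.127). The row of Slc7a4 lies wholly inside that of P2rx6, a purinergic receptor gene, which holds 2842 reads to the 2179 of Slc7a4 and had a log2 fold change of 1.00 (limma adjusted p = 0.0664). Reads of the pair cannot be told apart.

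Among the cationic amino acid transporters Slc7a2, known for arginine uptake, was at 3.61, 3.89, 4.03 and 3.79 in the del/del libraries in the same order, and at 3.22, 2.93, 3.41, 3.12 and 3.77 in the fl/fl libraries, so male fl/fl 7 again reached the del/del range. It had 0.56 (limma adjusted p = 0.188) and passed with the block (0.66, adjusted p = 0.0219), but not with the block and median centring (0.107). Slc7a3 on the X chromosome had -0.40 (limma adjusted p = 0.457, and 0.0661 with the block) and was lower in del/del in each of the 4 lines. Slc7a1 had -0.22.

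The light subunits of heteromeric exchangers gave 4 estimates below 0 of 6, while Slc7a8 was below 0 as well with quantile normalization and Slc7a10 with median centring and voom. Slc7a7 exports cationic amino acids for neutral ones. It was the only expressed transporter gene with all del/del values (0.88 to 1.11) below all fl/fl values (1.23 to 1.52). It had -0.35 (SE 0.148, limma adjusted p = 0.457), so the difference did not pass. Its row shares 226 bases, or 0.56% of its length, with that of Oxa1l, a gene with 28123 reads to 1897 of Slc7a7. Slc7a11, which imports cystine for glutathione synthesis, was lower in del/del in each of the 4 lines and had -0.30 (limma adjusted p = 0.748), or -0.14 without female fl/fl 2. Slc7a5 had -0.20, Slc7a6 -0.16, Slc7a10 0.00 and Slc7a8 0.28.

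In the small families no gene passed by limma, with or without the block, or by voom. Slc36a1, a proton-coupled exporter of amino acids from lysosomes, was at 4.01, 3.84 and 3.64 in female del/del 1, 2 and 3 and 3.70 in male del/del 5, above all fl/fl values (3.06 to 3.44). It had 0.47 (SE 0.121, limma adjusted p = 0.117, and 0.0473 with the RNA- prefix as a term), and its relative Slc36a4 had -0.16. Slc17a5, which exports sialic acid from lysosomes and was the only expressed gene of its family, was at 4.28 to 4.43 in del/del and 4.00 to 4.21 in fl/fl libraries, with 0.24 (SE 0.092, limma adjusted p = 0.355). All 4 expressed Slc1 genes had estimates below 0 (Slc1a4 was at 0.01 without female fl/fl 2), and none passed by limma (1 had an unadjusted p under 0.05) or voom. Slc1a5, the glutamine transporter known from dividing cells, was at 4.17 ± 0.137 (SD, n = 4) with the deletion and 4.42 ± 0.096 (SD, n = 5) without it, with -0.26 (limma adjusted p = 0.387), and was lower in del/del in each line. The glutamate transporter of neurons Slc1a1 had -0.28, that of Purkinje cells Slc1a6 -0.27, and Slc1a4 -0.16. Of the genes left out by the rule, the astrocyte glutamate transporter Slc1a2 rose from 3.99 ± 0.196 (SD, n = 5) to 4.65 ± 0.117 (SD, n = 4), with 0.66 (limma adjusted p = 0.0318), Slc1a3 had -0.00, and Slc38a4 was below the filter.

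**Figure D3:**
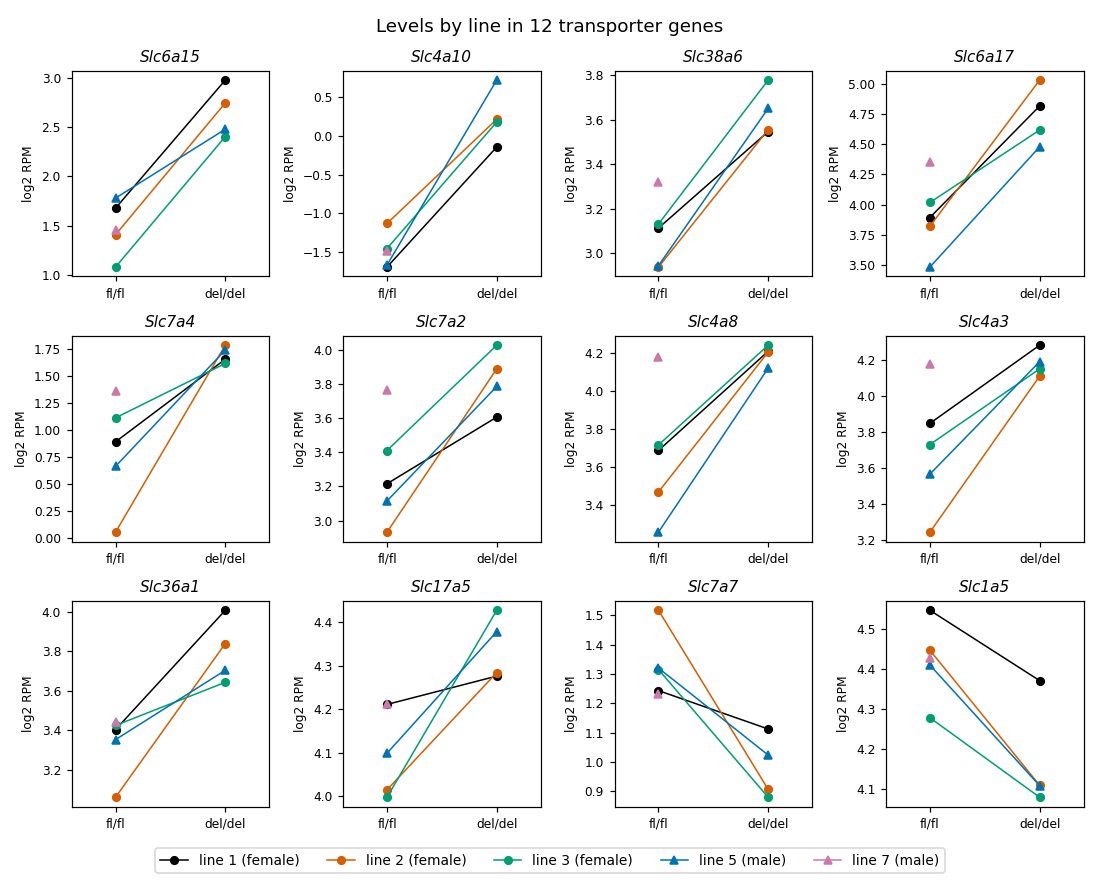
Levels in log2 RPM (y axis, a scale per panel) of 12 transporter genes, with the fl/fl and del/del library of each line joined. Circles are female and triangles male lines, and line 7 has a fl/fl library only. The line goes up 4 of 4 times in the first 10 genes and down 4 of 4 times in Slc7a7 and Slc1a5.

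Within females (3 against 3 libraries) 0 of the 38 transporter genes passed by limma or by voom, where 0.0142% of all genes rose by either and 0.00712% fell by voom. By limma 10 of the 38 had an unadjusted p under 0.05, as did 6.52% of all genes. With the line as a block Slc6a15 (female log2 fold change 1.32, limma adjusted p = 0.00142) and Slc6a17 (0.91, adjusted p = 0.0170) rose in females and 0 fell, against 1.87% and 0.0926% of all genes. In males (1 del/del library against 2) 0 passed by limma, and 3 of 38 had an unadjusted p under 0.05 (2.63% of all genes). In the 3 genes that rose over both sexes all del/del values lay above all fl/fl values, so the sign had to be the same in each sex. Slc6a15 had 1.32 in females and 0.86 in males, Slc4a10 had 1.51 and 2.30, and Slc38a6 had 0.57 and 0.52. The difference between the sexes did not pass for any of the 38 by limma, and none had an unadjusted p under 0.05 (0.0427% of all genes). Female and male fl/fl libraries did not differ by limma in any of the 38 at the threshold (0.0142% of all genes higher and 0.0214% lower in one sex), or at an unadjusted p under 0.05 (0.0997% of all genes), the X-linked Slc6a8 and Slc7a3 included.

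Female fl/fl 2 stood apart in several amino acid transporters. It was the highest of all 9 libraries in 12 of the 38 genes, as it was in 48.9% of all genes tested, and in 9 of the 38 after median centring (36.5% of all genes). Slc38a2 was at 7.89 there and between 6.76 and 7.31 in the other 8 libraries. Slc7a5 was at 7.51 against 6.39 to 6.78, Slc7a1 at 7.81 against 6.76 to 7.21, and Slc1a4 at 7.13 against 6.27 to 6.60. Their estimates moved from -0.10, -0.20, -0.22 and -0.16 with all libraries to 0.14, 0.04, -0.02 and 0.01 without it. It was the lowest library in Slc4a3, Slc4a11, Slc7a2, Slc7a4, Slc7a8, Slc36a1, Slc38a6 and Slc38a9. The median level over all genes tested was 4.46 there and 4.10 to 4.39 in the others.

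**Figure D4:**
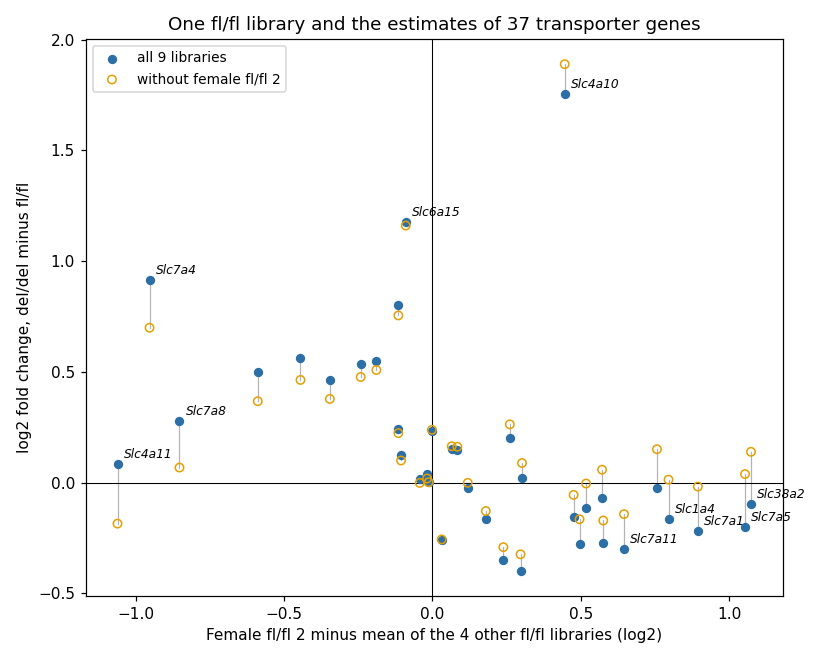
Log2 fold change of 37 expressed transporter genes (y axis, del/del minus fl/fl) against the gap between female fl/fl 2 and the mean of the 4 other fl/fl libraries (x axis, log2). Filled points use all 9 libraries and open points leave female fl/fl 2 out, and the axes share that library. Slc38a2, Slc7a5 and Slc7a1 stand at the right with gaps of 1.07, 1.05 and 0.90, Slc4a11 and Slc7a4 at the left with -1.06 and -0.95.

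Of the genes that work with these transporters none passed over both sexes by limma without the block. Over all genes tested 1.45% rose and 0.0997% fell in that fit, and 9.84% had an unadjusted p under 0.05 (8.06% up and 1.78% down). With the block 3.77% of all genes rose, and by voom 0.199% fell. Female fl/fl 2 was the highest library in 48.9% of all genes. Of 30 expressed partners and enzymes of amino acid metabolism 0 passed by limma (3 up and 3 down at an unadjusted p under 0.05) or by voom, with a median of -0.04. The heavy subunit Slc3a2 had -0.06. With the line as a block 1 passed, Gad1, which makes GABA (log2 fold change 0.80, limma adjusted p = 0.214, and 0.66 with adjusted p = 0.0348 with the block). Abat and Aldh5a1, which break GABA down, had 0.48 and 0.35 (limma adjusted p = 0.140 and 0.317). Of 23 expressed genes of amino acid sensing and the integrated stress response 0 passed by limma, with or without the block, or by voom (1 had an unadjusted p under 0.05, Trib3 at -0.38), with a median of -0.01. In that list 16 of the 23 were highest in female fl/fl 2. Of 17 expressed carbonic anhydrases and sodium proton exchangers 0 passed by limma (4 at an unadjusted p under 0.05), with a median of 0.13. By voom 1 fell, the carbonic anhydrase Car3 (-0.57, voom adjusted p = 0.0466). With the block the proton exchanger Slc9a2 (1.20, adjusted p = 0.139 without and 0.0232 with it) and the carbonic anhydrase Car9 (1.67, adjusted p = 0.430 and 0.0338) passed.

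Some markers of neurons and astrocytes rose in the same libraries. Of 7 expressed neuron markers 2 rose, Nefm (log2 fold change 1.49) and Nefl (1.25), where 1.45% of all genes rose. Estimates were below 0 for 4 of the 7, and the median was -0.18. The summed level of the 8 neuron markers in the table was 96.2 to 107 RPM in del/del and 57.9 to 86.9 RPM in fl/fl libraries, and Stmn2 was below the filter. The most abundant markers in this sum went different ways. Mean levels in del/del and fl/fl were 5.496 and 4.012 for Nefm, 3.865 and 2.633 for Nefl, but 4.775 and 5.069 for Syt1. Of 6 astrocyte markers 2 rose, Gfap (2.07) and Aqp4 (1.66), with all 6 estimates above 0, a median of 0.48 and summed levels of 137 to 180 RPM in del/del and 102 to 154 RPM in fl/fl libraries. Gja1, of the same list, did not pass by limma with all libraries (0.40, limma adjusted p = 0.207). It rose by voom (0.40, voom adjusted p = 0.00624) and by limma without female fl/fl 2 (adjusted p = 0.0272). By limma and by voom, oligodendrocyte markers gave 0 of 6 passing (0 at an unadjusted p under 0.05 by limma, 145 to 183 against 134 to 250 RPM), with Mog below the filter. Microglia markers likewise gave 0 of 3 (106 to 117 against 93.3 to 126 RPM), and Aif1, Tmem119 and Ptprc had at most 7 reads in a library. Most of the microglia sum was Cx3cr1, with mean levels of 6.667 in del/del and 6.655 in fl/fl. Fibroblast markers gave 0 of 1 (37.7 to 65.4 against 25.9 to 52.6 RPM), with Lum at 0 reads in all libraries. Most of the fibroblast sum was Acta2, with mean levels of 5.504 in del/del and 5.168 in fl/fl. Female del/del 2 stood apart in this list, with Col1a1 at 2.53 against -0.63 to -0.60 in the other del/del libraries and Col1a2 at 2.67 against -0.39 to -0.14. Without this library 0 transporter genes passed over both sexes by limma. The same count of 0 was found without female del/del 1 and without male del/del 5, so it is not particular to female del/del 2. Endothelial markers gave 0 of 2 (2 at an unadjusted p under 0.05, 3.81 to 7.96 against 2.61 to 4.47 RPM), with Flt1 passing under the block (adjusted p = 0.00995). The part of neuronal, astrocytic or fibroblast cells in the rises of Slc6a15, Slc4a10 and Slc38a6 was not tested.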

How the data were processed

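RNA of 9 neural stem cell libraries was analysed from 1 deposited table. Tools named in the submitters' processing notes, without their roles, are edgeR 3.8.2, TopHat2 2.0.12 and bcl2fastq, with build mm10. Which program counted reads, on which annotation and strand setting, is not given in the sources used. The values that the authors deposited are log2 RPM over whole gene rows, which can overlap. In each library at least 99.9961% of the values were whole multiples of the value of 1 read (within 0.05 reads), an empty gene being entered as 0.9 reads, so reads and depth (24.1 to 116.6 M reads per library) could be recovered. Kept were the 14044 genes that reached a log2 value of 0 in 3 or more libraries.

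The main test, two-sided, was the trend method of limma 3.58.1 under R 4.3.3 on the deposited log2 values. Its model held genotype and sex, which leaves 6 residual degrees of freedom, with Benjamini-Hochberg adjustment over all 14044 genes, at a threshold of 0.05. Effects by sex came from 4 group means (5 residual degrees of freedom), which takes the spread of the single male del/del library to be that of the other groups. The fit was also run on simulated data with independent noise for each gene and library. That cannot show how it does with shared lines or with a library shifted over all genes. The line block is a fixed term per line (3 residual degrees of freedom). The growth protocol says that each line was divided, so line numbers pair libraries; deviations of same-line female pairs correlated with r of 0.868, 0.582 and 0.758 across genes. Of the other pairs, del/del 2 with fl/fl 3 had 0.728, del/del 3 with fl/fl 2 had 0.494 and the rest were negative (-0.841 to -0.572). The main fit takes the 9 libraries as independent although 4 lines gave both cultures, so its p-values mix the spread between lines and between libraries. Those of the block measure the spread of the differences within lines. The labels do not say that lines come from separate embryos, so both speak for these lines only.

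Alternatives were other scalings, filters, log2 of RPM plus 1, voom on recovered reads, the block, the RNA- prefix and each library left out. Exon lengths came from GENCODE vM21 and promoters from RefSeq; 13 of the 71 rows overlap another row. The totals count 1 expressed gene that is not reported here. The members, gene lists and the rule for naming genes were chosen with earlier results of these data known. Named are genes that passed in a comparison or were separate between groups, the 2 with the smallest p and the 2 most abundant per family, the 2 largest and smallest estimates and all genes below the filter; others were added after their values were seen.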

Additional observations from a re-analysis of the deposited data

Results flagged for a closer look

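In 74 groups (37 genes in 4 del/del and in 5 fl/fl libraries) 13 had a library set apart from the rest by a gap that Dixon's test passes at 95%. Chance gives about 1 in 20 for independent groups, which these are not, as they share the same 9 libraries. The share of such groups over all genes was not counted, so the 13 cannot be read as an excess in these transporters. In fl/fl the library was female fl/fl 2 each time. It was highest in Slc38a2 (7.89, next 6.89), Slc7a1 (7.81, next 6.97), Slc7a5 (7.51, next 6.53), Slc4a7 (7.44, next 6.77), Slc38a1 (7.23, next 6.73), Slc1a4 (7.13, next 6.42), Slc6a6 (6.47, next 6.05) and Slc7a6 (5.52, next 5.08). It was lowest in Slc36a1 (3.06, next 3.35). In del/del the library was female del/del 1, highest in Slc7a1 (7.21, next 6.84), Slc7a5 (6.78, next 6.42), Slc1a4 (6.60, next 6.29) and Slc1a5 (4.37, next 4.11). Both libraries also have the highest median over all genes tested, 4.46 and 4.39. Female fl/fl 2 was the highest of the 9 libraries in 48.9% of all genes tested, so its place is not particular to these transporters.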

How the results depend on the processing

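The count of transporter genes passing over both sexes (3) was 0 with quantile normalization, 8 with the line as a replicate block, 3 with the block and median centring, 1 in the RNA- libraries alone and 5 with the RNA- prefix as a term. It ranged from 0 to 5 with each library left out. In females (0) it was 2 with the block and 0 with each library left out. Apart from these genes and Gad1, Slc9a2, Car9 and Flt1, the block changed no call in the lists. Of the 71 genes 69 had at least 1 read in a library, against 38 expressed. Over all genes the count of 217 (203 up, 14 down) became 104 with quantile normalization (86 up, 18 down), 561 with the block, 250 with the block and median centring and 398 with the prefix term, and 2 to 252 with each library left out. In females the count of 2 over all genes became 275 with the block, 24 with the block and median centring, 1 with median centring, 39 with log2 of RPM plus 1, 0 in the RNA- libraries and 0 to 7 with each library left out.

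Of 757 alternative estimates for the 38 genes 39 changed sign, in 12 genes whose difference passed in no setting. With quantile normalization Slc4a11 had -0.16, Slc6a9 0.0016, Slc4a7 0.041 and Slc7a8 -0.51. With voom Slc4a11 had -0.071, Slc4a2 -0.022, Slc7a10 -0.036 and Slc38a7 -0.0070. With median centring Slc4a2 had -0.0007 and Slc7a10 -0.013, and with the block added -0.0034 and -0.0036. With the replicate block alone Slc6a9 had 0.015, and with the prefix term 0.0024. In the RNA- libraries alone Slc4a2 had -0.053 and Slc7a10 -0.039, and without a sex term Slc7a10 had -0.0006. With each library left out the estimates ran from -0.19 to 0.24 for Slc4a11, -0.070 to 0.018 for Slc6a9, -0.11 to 0.086 for Slc4a2, -0.051 to 0.099 for Slc6a11, -0.071 to 0.063 for Slc7a10 and -0.018 to 0.068 for Slc38a7. They ran from -0.32 to 0.039 for Slc7a5, -0.26 to 0.013 for Slc1a4, -0.12 to 0.15 for Slc4a7, -0.15 to 0.058 for Slc38a1 and -0.21 to 0.14 for Slc38a2. In the last 5 the highest value was that without female fl/fl 2.

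The cause of these changes was not tested. The median standard error of the 38 estimates was 0.165, and 1 male del/del library gave the male effect. Slc4a10 rests on 11 to 168 reads per library, and female fl/fl 2 has the fewest reads.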
